A study of Mus musculus with 6 samples.

Results

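The genes described here encode the proteins of the mitochondrial ribosome, taken from the array as every non-control probe whose gene name in the scanner files is Mrpl or Mrps followed by a digit. The rule found 126 of the 41174 probes on the array, for 76 of 27343 gene names. RNA came from the spinal cord of male C57BL/6 mice aged 8 weeks, in 3 wild-type samples and 3 samples labelled Dhtkd1 null, each hybridised with Cy3 to its own Agilent whole mouse genome array. The labels do not say how the null allele was made or whether each replicate is a separate animal, so p-values measure the spread between these 6 samples, which may be technical. Dhtkd1 is an enzyme of lysine breakdown in the mitochondrial matrix, and null samples are compared with wild-type ones throughout.

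Mitochondria keep a small genome of their own, and the few proteins it encodes are core subunits of the respiratory chain and ATP synthase. They are made inside the organelle by a ribosome whose RNAs come from mitochondrial DNA, while all of its proteins are encoded in the nucleus, made in the cytosol and imported. The small subunit (Mrps proteins) binds and decodes the messenger RNA, and the large subunit (Mrpl proteins) forms the peptide bonds. Some of these proteins descend from bacterial ribosomal proteins, and others have no bacterial counterpart. In people, changes in several of them cause combined oxidative phosphorylation deficiency, and neurons are among the cells most dependent on respiration.

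The promoters of these genes are shown first, since the shared transcription factors of nuclear genes for mitochondria act there. RefSeq promoter windows of 300 bases (GRCm38.p6, from 250 bases before to 50 after a gene's start) were found for 67 of the 76 genes, 73 windows in all. Each was searched on both strands for the ETS motif CCGGAAG, to which GABP binds, for the NRF1 motif (GCGC, any base, T and again GCGC) and for the YY1 motif AAGATGGCG. No motif of the 3 contains another. The GABP letters were in 24 of the 73 windows (32.9%), against 8.86% of all 32851 promoter windows and 35.6% of the 73 windows of cytosolic ribosomal protein genes. The NRF1 letters were in 12 (16.4%), against 4.6% and 6.85%, and the YY1 letters in 8 (11.0%), against 1.4% and 6.85%. At least 1 of the 3 stood in 39 windows (53.4%), against 13.6% of all promoters and 47.9% of the cytosolic ribosomal protein windows. A match describes letters in a window and is not a measured binding site.

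Examples are printed from 3 large subunit genes, whose values come up below, as the 150 bases before the start on the gene's own strand, 5′ to 3′, with motif letters in capitals. None of these stretches overlaps a gene of the RefSeq table. Mrpl3 and Mrpl52 hold GABP letters (in Mrpl52 on the opposite strand), and Mrpl17 holds NRF1 letters, also on the opposite strand. They lie at chr9:105053118-105053267 (plus strand, Mrpl3), chr14:54426759-54426908 (plus strand, Mrpl52) and chr7:105811088-105811237 (minus strand, Mrpl17) of GRCm38.p6.
Mrpl3: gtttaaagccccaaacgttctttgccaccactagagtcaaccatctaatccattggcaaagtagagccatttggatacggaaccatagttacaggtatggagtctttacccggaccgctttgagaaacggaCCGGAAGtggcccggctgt
Mrpl52: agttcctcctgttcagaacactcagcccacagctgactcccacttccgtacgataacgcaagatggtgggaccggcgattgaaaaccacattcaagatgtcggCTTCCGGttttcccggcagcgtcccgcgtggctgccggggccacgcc
Mrpl17: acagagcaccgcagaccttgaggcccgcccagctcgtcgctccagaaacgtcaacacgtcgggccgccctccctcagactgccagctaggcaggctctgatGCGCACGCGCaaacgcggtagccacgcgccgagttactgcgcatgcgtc

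The 6 arrays were close in quality, with a 75th percentile of the processed intensity between 950.4 and 1054.5 units and 78.4% to 82.0% of spots well above background. Values are the log2 signal of a probe minus the 75th percentile of its array, called the log2 signal below, so that a level says how far the probe lay from that percentile and a difference is null minus wild-type. The targeted gene had lower signal in the null samples at both of its probes. Its brightest probe read -2.42, -3.12 and -2.92 in wild-type and -4.30, -3.39 and -3.99 in null, a log2 difference of -1.07 (SE 0.28, limma adjusted p = 0.511). The dimmer probe, at chr2:5817910-5817969 (mm9, the build of the array files), read -2.87, -2.98 and -3.05 in wild-type and -4.02, -4.01 and -4.13 in null. There the log2 difference was -1.08 (SE 0.08, limma adjusted p = 0.0862). The labels do not say which part of the gene is deleted. Slides and groups were unevenly matched: slide 1 held wild-type replicate 2 with all 3 null samples, and slide 2 held wild-type replicates 1 and 3 only. Among marker genes, 6 of 6 Hox genes of cord position and 6 of 6 neuron genes were measured. So were 6 of 6 skeletal muscle genes, and such counts do not single out the cord. In bulk tissue, fewer cells of a type and less RNA per cell cannot be told apart.

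Signal of all 76 mitochondrial ribosomal protein genes was found in the cord of both genotypes. Each gene was read by its brightest probe, which was well above background on 6 of 6 arrays for all 76. Of the 126 probes, 124 passed the filter, which asked that 3 or more of the 6 arrays show a probe well above background. The other two were extra probes of genes that had better ones. One of Mrpl52 was well above background on no array, and one of Mrpl47 on 1 wild-type and 1 null array. The probes lay on 17 chromosomes, and 25 of them spanned more than the probe length of 60 bases on the genome.

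Differences between null and wild-type cord were small for this group, with a median size of 0.048 log2 units. No member probe of the 124 passed an adjusted p of 0.05 in limma (Benjamini-Hochberg over all 33191 probes fitted), beside 0 of 33191 in the series (0%), and the lowest adjusted p of a member gene was 0.586. At an unadjusted p under 0.05 there was 1 of 76 genes (1.32%), Mrps2, beside 8.73% of all 21439 genes, and 1 of 124 probes, beside 8.2% of all probes. Of the 76 genes, 35 were higher and 41 lower in null (53.9% lower, beside 45.5% of all genes), with a median log2 difference of -0.004, beside 0.017 over all genes. The differences ran from -0.27 to 0.23. They were smaller than 0.1 in size in 61 genes, between 0.1 and 0.2 in 11 and larger in 4, while 45.7% of all genes were under 0.1.

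The precision behind these differences was high for most of the genes. The median standard error was 0.083 log2 units, beside 0.117 over all genes, and the median SD between arrays of a group was 0.080, beside 0.146. For 74 of the 76 genes (97.4%, beside 68.1% of all genes) the 95% interval of the difference lay within a 1.5-fold change in either direction. The exceptions were Mrpl46, with an interval from -0.90 to 0.36, and Mrps5, from -0.57 to 0.86. No member reached a 1.5-fold difference at its brightest probe, beside 5.32% of all genes. A dimmer probe of Mrpl3, described below, did. The 80 cytosolic ribosomal protein genes were alike in precision, though 1 of them (1.25%) reached a 1.5-fold difference. Their median size of difference was 0.032 and their median standard error 0.072, and 97.5% of their intervals lay within 1.5-fold. All these intervals hold for each gene alone and are not adjusted for the number of genes. With the slide as a fixed block in the fit, 70 of 76 intervals lay within 1.5-fold, but there the difference rests on wild-type replicate 2 as the only wild-type sample.

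**Figure D1:**
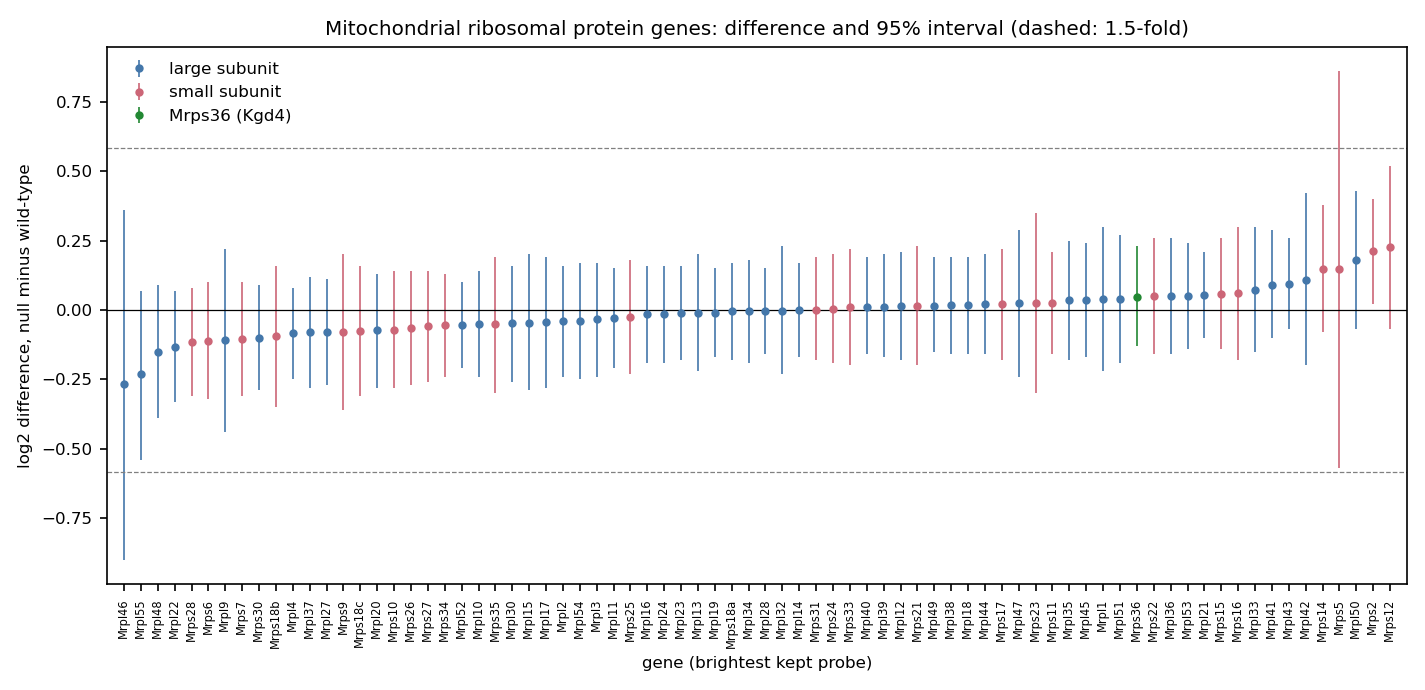
Log2 difference, null minus wild-type, of each of the 76 genes (x axis, ordered by difference) with its 95% interval from limma as a vertical line, 3 samples per group. Colours mark the subunit, and dashed lines mark a 1.5-fold change. The intervals of 74 genes lie between the dashed lines, and that of Mrps2 is the only one that leaves out 0.

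**Figure D2:**
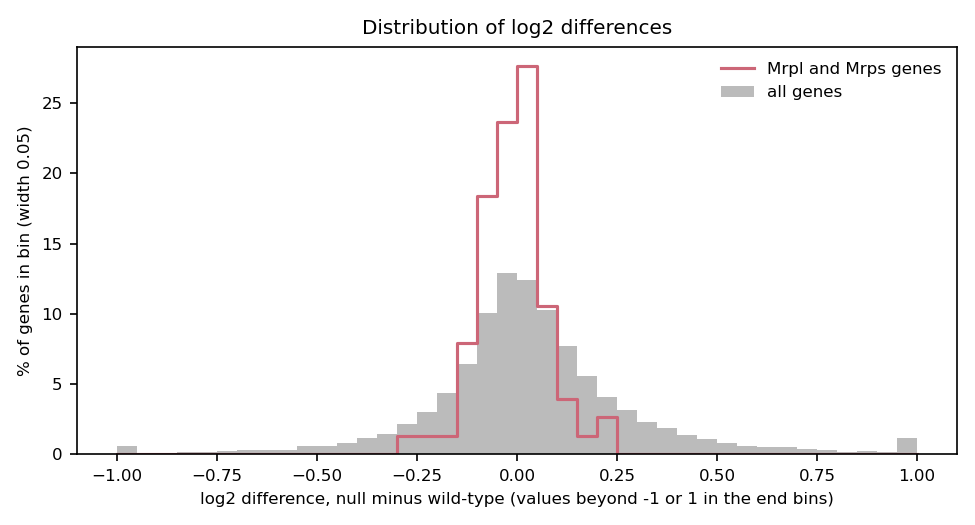
Share of genes (y axis, percent) by log2 difference, null minus wild-type (x axis, bins of 0.05), for all 21439 genes (grey bars) and the 76 mitochondrial ribosomal protein genes (line). The line is confined to -0.27 to 0.23, and the median size of a difference is 0.048 for these genes and 0.113 for all genes.

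The large subunit was represented by 49 genes, which include Mrps18a and Mrps30 because their proteins sit in that subunit despite their names. Of these, 20 were higher and 29 lower in null, with a median log2 difference of -0.005 and none at an unadjusted p under 0.05. The small subunit had 26 genes, 14 higher and 12 lower, with a median of 0.002. Split by descent, the 29 large subunit proteins with bacterial counterparts were lower in 21 genes (median -0.013) and the 16 small subunit ones in 6 (median 0.018). Of the remaining proteins, most without a bacterial counterpart but Mrps18a and Mrps18b among them, 8 of 20 in the large subunit and 6 of 10 in the small subunit were lower, with medians of 0.014 and -0.038. Within slide 1 most genes of every class were lower: 27 of the 29 and 11 of the 16 bacterial-type genes were lower (medians -0.066 and -0.06), as were 16 of the 20 and 9 of the 10 others (medians -0.055 and -0.062). That comparison rests on wild-type replicate 2 as its 1 wild-type sample, as described below.

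The 3 null samples did not overlap the 3 wild-type samples in 8 of the 76 genes (10.5%, beside 14.8% of all genes). Of these, 5 were higher in null (beside 9.18% of all genes) and 3 lower (beside 5.63%). An exact 2-sided permutation test of 3 against 3 cannot give less than 0.1, which is the value for each of these genes, and none had a limma adjusted p under 0.05.

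Mrps2, a small subunit protein of bacterial descent, had the lowest unadjusted p of the group. Its brightest probe (chr2:28326283-28326342, plus strand, mm9) read 0.67, 0.74 and 0.55 in wild-type and 0.86, 0.87 and 0.86 in null. The null samples were almost level with each other and above every wild-type sample, by 0.21 on average (SE 0.08, 95% interval 0.02 to 0.40, unadjusted p = 0.0338 and adjusted p = 0.586 in limma). A second probe, at chr2:28325545-28325604, read -1.26, -0.98 and -1.33 in wild-type and -0.97, -1.06 and -1.03 in null, a difference of 0.17 with overlapping groups. The dimmest, at chr2:28324181-28324240, read -1.54, -1.73 and -1.94 in wild-type and -1.59, -1.97 and -1.82 in null, a difference of -0.05 in the other direction. With the mean of the 3 probes the difference was 0.11 (unadjusted p = 0.289), and against wild-type replicate 2 alone, the only wild-type sample on the slide of the null samples, it was 0.13. Leaving out 1 sample gave unadjusted p-values from 0.0266 to 0.0909, and only the fit without wild-type replicate 2 stayed under 0.05. The first 30 bases of each probe are given, 5′ to 3′, because the 3 probes read different stretches of the gene and disagree.
Mrps2 brightest probe: caaagaaggaaatccatacctgtttcccac
Mrps2 second probe: cacactagatagccagccctcttctgagca
Mrps2 dimmest probe: accttgacactagtccctcggtgttgcaaa

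Mrps12, a protein of the decoding centre, had the largest upward difference. It read 3.44, 3.06 and 3.4 in wild-type and 3.48, 3.59 and 3.53 in null, 0.23 higher (SE 0.12, limma unadjusted p = 0.107). Wild-type replicate 2 stood well below the other two, which came close to the null samples, and without it the difference was 0.11. Within slide 1, where wild-type replicate 2 is the only wild-type sample, the difference was 0.47.

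The other three genes that were higher without overlap were Mrps14, Mrpl43 and Mrpl21. Mrps14, a small subunit protein of bacterial descent, read 1.91, 1.94 and 1.69 in wild-type and 2.04, 2.00 and 1.95 in null, a difference of 0.15 (SE 0.09). Only wild-type replicate 3 was clearly low, and without it the difference was 0.07. Mrpl43, a large subunit protein without a bacterial counterpart, read 4.07, 4.12 and 4.03 in wild-type and 4.15, 4.17 and 4.18 in null, 0.09 higher (SE 0.07). Its second probe read 3.26, 3.35 and 3.19 in wild-type and 3.27, 3.29 and 3.32 in null, a difference of 0.02 with overlapping groups. Mrpl21, a bacterial-type large subunit protein, read 1.48, 1.51 and 1.46 in wild-type and 1.53, 1.54 and 1.55 in null, 0.05 higher (SE 0.06). When arrays were centred on their median, Mrpl43 kept 0.04 and Mrpl21 0.01 of these differences.

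Mrpl22, Mrpl4 and Mrpl52 were lower without overlap, and all belong to the large subunit. Mrpl22 and Mrpl4 descend from bacterial proteins that line the tunnel through which the new peptide leaves. Mrpl22 read 0.59, 0.64 and 0.63 in wild-type and 0.51, 0.59 and 0.37 in null, a difference of -0.13 (SE 0.08), with the nearest samples of the groups equal at this rounding. Mrpl4 read 1.23, 1.17 and 1.23 in wild-type and 1.15, 1.16 and 1.08 in null, a difference of -0.08 (SE 0.07). Mrpl52, whose promoter stretch is printed above, read 4.27, 4.24 and 4.26 in wild-type and 4.23, 4.2 and 4.18 in null, a difference of -0.05 (SE 0.06). Its other kept probe differed by 0.14 in the opposite direction, and the mean of both gave 0.04.

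**Figure D3:**
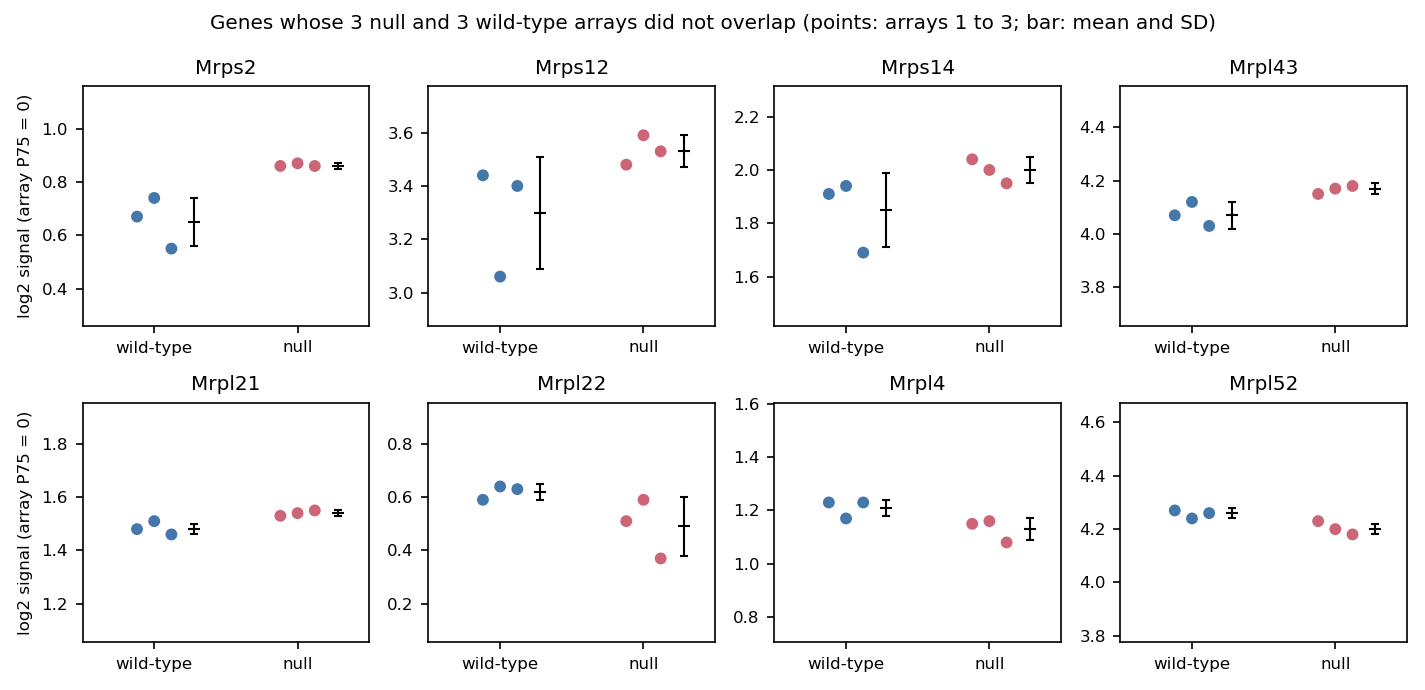
Log2 signal relative to the 75th percentile of the array (y axis, the same span of 0.9 in every panel) of the 8 genes whose groups did not overlap, by genotype. Points are arrays 1 to 3 from left to right, and bars are the mean and SD of 3 samples. The gaps between groups are small beside the spread of the wild-type samples in Mrps12 and Mrps14, where 1 wild-type sample is low.

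The largest downward differences came from single samples or from overlapping groups. Mrpl46, a large subunit protein without a bacterial counterpart, read 1.5, 1.64 and 1.32 in wild-type and 0.64, 1.53 and 1.49 in null. Its difference of -0.27 (SE 0.26) was that of null replicate 1, which lay 1.81-fold below the mean of the other 5 samples, and without that sample the difference was 0.02. The gene has 1 probe, at chr7:85925493-85926340 (minus strand, mm9), whose genomic span of 848 bases is longer than the 60-base probe. Mrps11, which lies beside it on the other strand (probe at chr7:85933622-85935544), read 0.47 in null replicate 1 and 0.33 to 0.47 in the other 5 samples, and was looked up after the values of Mrpl46 were seen. Mrpl55, another large subunit protein without a bacterial counterpart, read 3.73, 3.75 and 3.68 in wild-type and 3.74, 3.43 and 3.30 in null. Null replicate 1 was at the wild-type level and the other null samples were lower, for a difference of -0.23 (SE 0.12, limma unadjusted p = 0.113). Without null replicate 1 the difference was -0.36, but that leaves out the null sample that disagreed with the others. Mrpl48 read 1.82, 1.98 and 2.03 in wild-type and 1.92, 1.74 and 1.71 in null, a difference of -0.15 (SE 0.10). Among upward differences without separation, Mrpl50 read 2.07, 2.14 and 1.84 in wild-type and 2.20, 2.25 and 2.13 in null, 0.18 higher (SE 0.10). Its second probe differed by 0.07. Within slide 1, against wild-type replicate 2 alone, the difference at the brightest probe was 0.06.

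Probes of the same gene often differed in the direction of these small differences. Of the 34 genes with at least 2 kept probes, the probes shared 1 sign in 18 and differed in sign in 16. The widest spread of differences within a gene was 0.67 in Mrpl3, followed by 0.36 in Mrpl27, 0.27 in Mrps2 and 0.23 in Mrps5. Mrpl27 read 3.46, 3.52 and 3.37 in wild-type and 3.42, 3.33 and 3.35 in null at its brightest probe, -0.08, while its dimmer probe differed by 0.28. Mrpl27 was named for that spread, after its values were seen.

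Mrpl3, a protein near the peptide bond forming centre, showed 1 probe with a single very low sample. That probe (chr9:104978228-104978287, mm9, designed on a cDNA clone) read -1.21, -1.14 and -1.17 in wild-type and -3.11, -1.13 and -1.16 in null. Null replicate 1 lay 3.84-fold below the mean of the other 5, which were within 0.08 of each other, although the spot was well above background and not marked as an outlier. The 3 other probes of Mrpl3 did not have that drop. The brightest (chr9:104979701-104979760) read 2.35, 2.33 and 2.19 in wild-type and 2.34, 2.24 and 2.19 in null, a difference of -0.03 (SE 0.08). A probe just upstream of it, at chr9:104979522-104979581, read 2.03, 2.05 and 2.01 in wild-type and 2.34, 1.96 and 1.91 in null, so that null replicate 1 was its highest sample. The first 30 bases of the probe with the drop and of these 2, plus strand and 5′ to 3′, are given to let the probes be found in other annotations.
Mrpl3 probe with 1 low sample: gagaagtcactacttgcatcctatgtgaca
Mrpl3 brightest probe: cgcctgtcatttataggtgtcattctttag
Mrpl3 probe with 1 high sample: agatcaggaatgggaatcgcattccctcgg

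Mrps5 and Mrpl47 each had 1 probe that varied widely within both genotypes. The brightest probe of Mrps5, a small subunit protein of bacterial descent, read 1.82, 1.28 and 0.98 in wild-type and 1.07, 1.91 and 1.55 in null, with an SD of 0.42 in each group. Wild-type replicate 1 and null replicates 2 and 3 were high and the other 3 samples low, so the genotypes overlapped fully. The next probe of Mrps5 read 0.60, 0.58 and 0.72 in wild-type and 0.69, 0.56 and 0.59 in null, without that spread. A secondary probe of Mrpl47 (chr3:32624672-32624731, mm9) read -0.65, -0.01 and -0.06 in wild-type and 0.03, -0.60 and -0.63 in null. The same 3 samples that were high for Mrps5 were low here, while the brightest probe of Mrpl47 read 0.88, 0.79 and 0.58 in wild-type and 0.69, 0.88 and 0.75 in null. These probes were singled out after their values were seen.

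**Figure D4:**
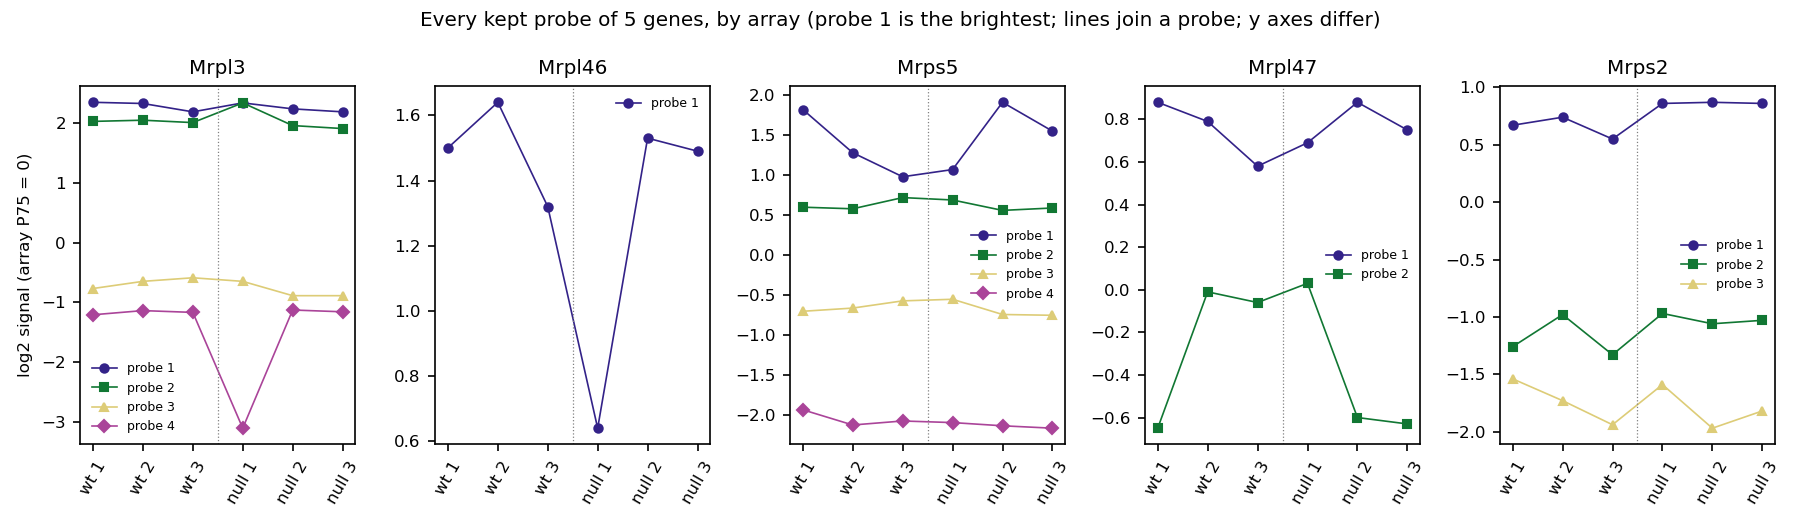
Log2 signal relative to the 75th percentile of the array (y axis, scale differs between panels) of every kept probe of Mrpl3, Mrpl46, Mrps5, Mrpl47 and Mrps2 in each of the 6 arrays (x axis). Null replicate 1 alone is low at 1 probe of Mrpl3, at -3.11, and at the probe of Mrpl46, at 0.64, while other probes of Mrpl3 do not fall.

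Genes of this group that are linked in people to combined oxidative phosphorylation deficiency had no member past the adjusted threshold. Of the 13, 8 were higher and 5 lower in null, with a median log2 difference of 0.013, while within slide 1 the direction turned, with 10 lower and a median of -0.062. Mrps2 was the only one at an unadjusted p under 0.05 (7.69%, beside 8.73% of all genes). Beside Mrps2 and Mrps14, described above, the small subunit members were Mrps7 at -0.10, Mrps16 at 0.06, Mrps22 at 0.05, Mrps23 at 0.03, Mrps25 at -0.02, Mrps28 at -0.12 and Mrps34 at -0.05. The large subunit members were Mrpl3 at -0.03, Mrpl12 at 0.01, Mrpl39 at 0.01 and Mrpl44 at 0.02. Mrps28 had the lowest of these values and read 2.95, 2.97 and 2.81 in wild-type and 2.86, 2.78 and 2.76 in null (SE 0.08), with overlapping groups. Mrpl12, the stalk protein that recruits translation factors, read 3.05, 3.23 and 3.19 in wild-type and 3.22, 3.14 and 3.15 in null.

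The 3 genes of the Mrps18 family are homologues of 1 bacterial protein, of which Mrps18b and Mrps18c serve the small subunit and Mrps18a the large one. Mrps18a read 2.95, 3.05 and 2.94 in wild-type and 2.99, 2.95 and 2.99 in null, with equal means at this rounding. Mrps18b read -1.65, -1.66 and -1.64 in wild-type and -1.56, -1.77 and -1.90 in null, a difference of -0.09 (SE 0.10) in which the wild-type samples were nearly identical and the null samples spread to both sides. Mrps18c read 2.37, 2.59 and 2.32 in wild-type and 2.40, 2.33 and 2.33 in null, a difference of -0.08 (SE 0.10) that became 0.01 without the high wild-type replicate 2. Mrps30, also of the large subunit, read 1.62, 1.6 and 1.66 in wild-type and 1.61, 1.52 and 1.44 in null, a difference of -0.10 (SE 0.08).

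Mrps36 stands apart from the ribosome, since its product, also called Kgd4, is known as a part of the 2-oxoglutarate dehydrogenase complex, a relative of the complex that contains Dhtkd1. It read 2.68, 2.71 and 2.71 in wild-type and 2.67, 2.83 and 2.74 in null. The groups overlapped, with a difference of 0.05 (SE 0.07, 95% interval -0.13 to 0.23, limma adjusted p = 0.862). Its second probe differed by 0.01.

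The mean level of the group varied more between arrays of 1 genotype than between genotypes. The mean over the 76 genes of each gene's deviation from its own mean over 6 arrays was 0.004, 0.057 and -0.048 in wild-type and 0.018, 0.005 and -0.035 in null. Wild-type replicates 2 and 3 lay at the ends, 0.104 apart, with all null samples between them, and the genotype means differed by -0.008. Wild-type replicate 2 was the highest of the 6 arrays in 30 of the 76 genes (39.5%, beside 20.5% of all genes), and wild-type replicate 3 was the lowest in 34 (44.7%, beside 30.1%). Both subunits followed this order. The large subunit read 0.002, 0.067 and -0.044 in wild-type and 0.010, 0 and -0.034 in null, and the small subunit 0.010, 0.040 and -0.056 in wild-type and 0.034, 0.012 and -0.040 in null.

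Because wild-type replicate 2 is the only wild-type array on the slide of the null arrays, the comparison within slide 1 gave another count. There 63 of the 76 genes (82.9%, beside 48.9% of all genes) were lower in null, with a median of -0.061, beside 0.006 over all genes. In the large subunit 43 of 49 were lower and in the small subunit 20 of 26. This comparison sets 1 wild-type sample against 3 null samples and cannot tell that sample from its genotype, and slide 2 holds no null sample. Without wild-type replicate 2, 32 of 76 were lower, with a median of 0.019, and without wild-type replicate 3, 54 of 76, with a median of -0.029. Wild-type replicate 2 also had the highest mean marker level of the 6 arrays for 4 cell types. For motor neurons (5 of 5 markers measured) it ran from -0.38 to 0.63 in wild-type and from -0.25 to 0.07 in null. For astrocytes (5 of 5) it ran from -0.10 to 0.23 and from -0.20 to 0.11, for oligodendrocytes (6 of 6) from -0.27 to 0.28 and from -0.15 to 0.09, and for skeletal muscle (6 of 6) from -1.68 to 0.90 and from 0.18 to 0.56. For red blood cells (4 of 4) it had the lowest level instead, at -0.7, beside -0.26 and 0.18 in the other wild-type samples and 0.07 to 0.52 in null. Some other lists ranged more widely, with other samples at the ends. Schwann cell markers (5 of 5) ran from -0.88 to 1.85 in wild-type and from -1.77 to 0.19 in null. Meningeal fibroblast markers (5 of 5) ran from -0.52 to 1.48 and from -1.77 to 0.59. For blood leukocytes (5 of 5) the level ran from -1.15 to 0.06 and from -0.72 to 1.48. No defining marker of these lists was without measured signal, and their part in the result was not tested. Centring each array on its median also lowered the values: 61 of 76 genes were then lower, with a median of -0.053, beside 57.7% and -0.032 over all genes.

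**Figure D5:**
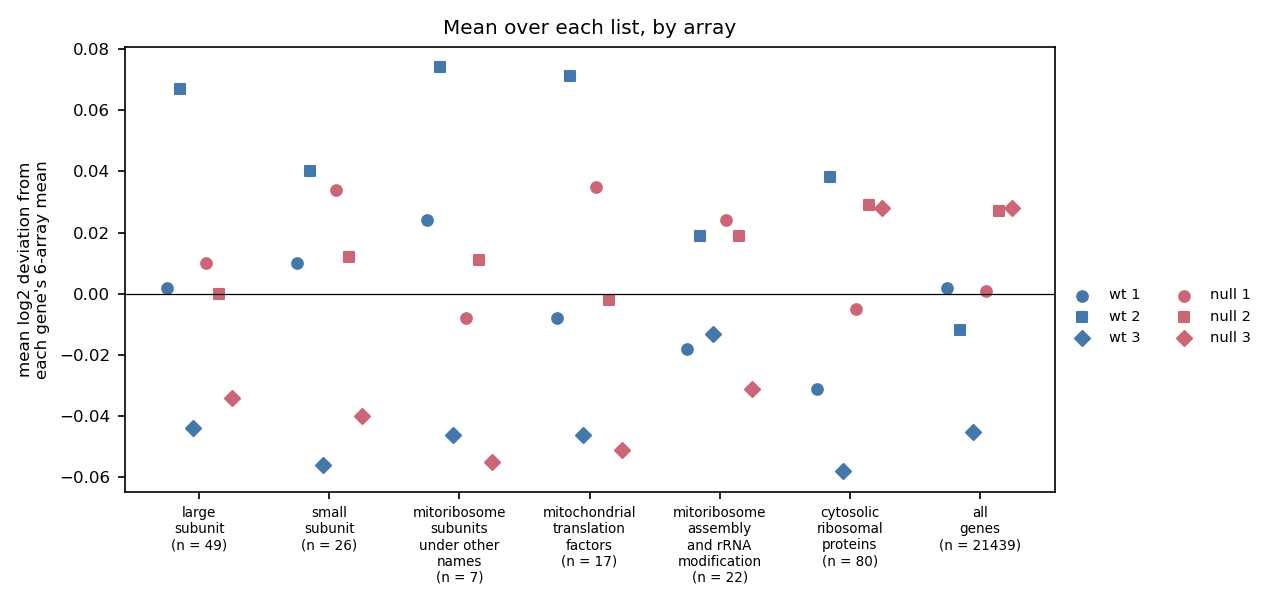
Mean over each gene list (x axis, number of genes below the name) of the log2 deviation from a gene's mean over 6 arrays (y axis), for each array. Wild-type replicate 2 is the highest array in both subunits and wild-type replicate 3 the lowest, with the 3 null arrays between them.

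No other listed gene of mitochondrial translation passed the adjusted threshold. Of 7 subunits of the ribosome that carry other names, 3 were higher and 4 lower in null, with a median of -0.043 and none at an unadjusted p under 0.05. The farthest was Gadd45gip1 at -0.19 (SE 0.12). It read 3.24, 3.26 and 3.17 in wild-type and 2.8, 3.18 and 3.13 in null, so that only null replicate 1 lay far below the wild-type samples. Within slide 1 all 7 were lower (median -0.102). Their array means were 0.024, 0.074 and -0.046 in wild-type and -0.008, 0.011 and -0.055 in null, with wild-type replicate 2 the highest, as for the Mrpl and Mrps genes, but null replicate 3 the lowest.

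Of 17 translation factors, 9 were higher and 8 lower (median 0.016), and none had an unadjusted p under 0.05. Within slide 1 the direction turned, with 13 of 17 lower and a median of -0.091. Mrrf, the recycling factor that splits the ribosome after termination, read 1.79, 1.96 and 2.04 in wild-type and 2.06, 2.22 and 2.19 in null, 0.23 higher without overlap (SE 0.10, limma unadjusted p = 0.0575). Rmnd1 was at -0.20 and Oxa1l, which inserts new proteins into the inner membrane, at -0.16, both with overlapping groups.

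Of 22 genes for assembly of the ribosome and modification of its RNA, 13 were higher and 9 lower (median 0.033), and 10 of 22 were lower within slide 1 (median 0.02). At an unadjusted p under 0.05 there was 1 gene (4.55%, beside 8.73% of all genes). This was Mpv17l2, an inner membrane protein needed for assembly, which read 1.11, 1.20 and 1.15 in wild-type and 0.77, 0.98 and 0.81 in null. All null samples lay below all wild-type samples, with a difference of -0.30 (SE 0.08, limma unadjusted p = 0.0121 and adjusted p = 0.534). Nsun4, which methylates the small subunit RNA, was at -0.15 and Mrm2, which methylates the large subunit RNA, at 0.17, both without overlap. Of 7 genes of mitochondrial transcription, 5 were higher and 2 lower (median 0.053), but 4 of 7 were lower within slide 1 (median -0.006). Only 1 gene had an unadjusted p under 0.05 (14.3%, beside 8.73% of all genes). This was Mterf1b, 1 of a pair of near copies of a termination factor, which was 0.26 higher (limma unadjusted p = 0.0419 and adjusted p = 0.597). Its copy Mterf1a was at -0.30, and Mterf2 at 0.17. The signal of Mterf1a was dim, at -6.71, -6.33 and -6.21 in wild-type and -6.7, -6.75 and -6.71 in null. Near copies can share signal on an array, so the opposite values of Mterf1b and Mterf1a are uncertain.

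The products of the mitochondrial ribosome itself could be read at the RNA level only through a few probes named for genes of mitochondrial DNA, picked after the probe list was seen. The log2 difference was 0.07 for ND4, 0.07 for CYTB, 0.10 for COX2 and 0.04 and -0.01 for 2 probes of ATP6, all with overlapping groups. The array files place the probes of ND4 and CYTB on mitochondrial DNA, but those of COX2 and ATP6 on chromosome 1 of mm9 (chr1:24621297-24621798 in all, minus strand), so whether these 3 probes read the mitochondrial genes was not tested. Array probes of RNA do not measure how much protein was made.

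The cytosolic ribosome served as a second large set of ribosomal protein genes. Of its 80 genes, 52 were higher and 28 lower in null, with a median of 0.009 and 1 gene, lower, at an unadjusted p under 0.05 (1.25%, beside 8.73% of all genes). Their array means were -0.031, 0.038 and -0.058 in wild-type and -0.005, 0.029 and 0.028 in null. Wild-type replicates 2 and 3 were again the ends, but null replicates 2 and 3 lay higher than for the mitochondrial set. Within slide 1, 45 of 80 were lower (median -0.006).

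Genes with and without the promoter motifs are set side by side as a description. The 39 genes with at least 1 of the 3 motifs had a median log2 difference of 0.009, with 18 lower in null, and the 28 genes with a promoter entry but no match had a median of -0.008, with 15 lower. The 24 genes with GABP letters had a median of 0.002, with 12 lower. Mrpl17, whose printed stretch holds NRF1 letters, read 1.53, 1.75 and 1.48 in wild-type and 1.59, 1.51 and 1.53 in null, a difference of -0.04 (SE 0.10) with overlapping groups.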

How the data were processed

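The deposited scanner files hold spot intensity from Agilent Feature Extraction 10.7.3.1 (array design 014868, positions in mm9). Per the file headers, background subtraction and spatial detrending were applied to this intensity array by array, with no step between arrays. The authors' deposited value table is in log2 units by a method not given in the sources used here, and served as an alternative.

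The log2 processed intensity minus each array's 75th percentile was analysed, with outlier spots left out (58 to 89 per array) and repeated spots averaged. Probes well above background on at least 3 of 6 arrays (33191) were fitted together in limma 3.58.1 (R 4.3.3, lmFit and eBayes, 2-sided), null minus wild-type, with Benjamini-Hochberg adjustment over all of them. A gene is its kept probe with the highest mean (21439 genes). The number of arrays limits the precision. The fit was tested on simulated data with shifts far larger than the differences of these genes and no slide effect. That test does not cover differences as small as those here.

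Named are genes without group overlap, the 3 largest differences in each direction, disease-linked genes, the Mrps18 genes, Mrps30, Mrps36, genes whose probes differ in sign with either at an unadjusted p under 0.05, and up to 3 genes of smallest p per other list. Mrps5, Mrpl47, Mrpl27 and Mrps11 were named after their values were seen, and Mrpl17 for its printed promoter. Members and lists were chosen with earlier results of these data known. Alternatives covered normalization, background, filter, probe choice, slide, replicate block and leaving out each sample. Promoters are from RefSeq (GRCm38.p6). Exon and intron positions of probes were not analysed here.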

Additional observations from a re-analysis of the deposited data

How the results depend on the processing

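No member probe passed an adjusted p of 0.05 in limma in the main fit or any of the 20 alternatives. The median log2 difference over the 76 genes was -0.004. It moved past the replicate spread with slide as a fixed block, to -0.061, where 63 genes were lower. Slide 1 alone gave the same values by design, since slide 2 holds no null sample. Both set the null samples against wild-type replicate 2 alone. Leaving out a sample gave medians from -0.029 to 0.019 and 32 to 54 genes lower. Quantile normalization and the authors' deposited value table gave 37 lower, while median centring gave more genes lower than the main fit, as described above. The count at an unadjusted p under 0.05 was 1, and became 0 with median centring, with the replicate block and with the mean of all kept probes, 2 with normexp background correction, and 0 to 1 when a sample was left out. Labels number replicates in both groups but do not call them pairs, so the numbers were not taken as pairs. Deviations of same-numbered samples correlated at -0.02, -0.09 and 0.30, and not every sample correlated best with its own number. With 3 samples per group such correlations cannot decide whether samples were paired. Intervals within 1.5-fold, an alternative chosen after seeing the data, numbered 74, with 70 under the slide block, 73 under median centring and 73 under the replicate block. With the replicate block 41 genes were still lower and the median stayed at -0.004. Dhtkd1 at its brightest probe was -1.07, and ranged from -1.15 to -0.68 over other alternatives and from -1.33 to -0.87 without 1 sample. Across 28 named genes and 20 alternatives, 34 of 560 values changed sign, in 13 genes, and none passed the adjusted threshold. Why these values moved was not tested. In the main fit of 3 against 3 arrays, the interval of every member gene but Mrps2 included 0.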
